A study of Homo sapiens with 8 samples.

Results

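The genes described are the 7 cyclin-dependent kinase (CDK) inhibitor genes, CDKN2A, CDKN2B, CDKN2C and CDKN2D of the INK4 family and CDKN1A, CDKN1B and CDKN1C of the CIP/KIP family, out of 20090 protein-coding genes annotated on chromosomes 1 to 22 and X. They were taken by name, and each was given a region made of its gene body plus 2 kb upstream in GRCh37. The chromatin was from PC9, an established human lung adenocarcinoma cell line, grown for 5 days with the vehicle DMSO or with 1 μM GSK126, a small molecule inhibitor of the methyltransferase EZH2. ChIP-seq for H3K27me3 and for H3K4me3 was carried out on 2 replicates of each treatment, which gave 8 libraries, and chromatin of Drosophila melanogaster OSS cells with an antibody to its histone H2Av had been added to every reaction as a spike-in. The data are 14 lists of islands, the stretches of 200-bp windows that the peak caller SICER found enriched. Each H3K27me3 library and each H3K4me3 library from GSK126-treated cells had a list for the standard normalization, with equal human tags in both treatments of a replicate, and another for the spike-in normalization. The H3K4me3 libraries from DMSO-treated cells had 1 list each, which served both comparisons.

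INK4 proteins bind CDK4 and CDK6 and keep them from pairing with D cyclins, whereas CIP/KIP proteins bind complexes of cyclins with CDKs, mainly those of CDK2. Both families hold the retinoblastoma protein in its unphosphorylated, E2F-binding state and so restrain the step from G1 into S phase. EZH2 is the catalytic subunit of the Polycomb complex PRC2, which places H3K27me3 on repressed genes, and the CDKN2A and CDKN2B locus is a classic Polycomb target in cultured cells. H3K4me3 marks the starts of genes that are active or poised, and a start that carries both marks is called bivalent.

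The stretches upstream of the starts in the CDKN2A and CDKN2B locus and of CDKN1A are shown because they lay in H3K4me3 islands and outside H3K27me3 islands in every list. Each is the 250 bases before a start in RefSeq (GRCh38.p14), on the strand of the gene, with CG dinucleotides in capitals. Each matched GRCh37 exactly once, at chr9:21974857-21975106 for the CDKN2A start of the p16 transcript, chr9:21995324-21995573 for the CDKN2A start on the side of the ARF first exon, chr9:22009305-22009554 for CDKN2B (these 3 on the minus strand) and chr6:36646241-36646490 for CDKN1A on the plus strand.
CDKN2A, p16 start: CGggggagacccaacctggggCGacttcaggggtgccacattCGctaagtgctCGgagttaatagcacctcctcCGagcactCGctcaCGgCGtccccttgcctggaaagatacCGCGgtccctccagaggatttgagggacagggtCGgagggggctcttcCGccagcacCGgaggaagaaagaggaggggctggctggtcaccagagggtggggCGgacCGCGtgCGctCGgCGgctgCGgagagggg
CDKN2A, ARF side: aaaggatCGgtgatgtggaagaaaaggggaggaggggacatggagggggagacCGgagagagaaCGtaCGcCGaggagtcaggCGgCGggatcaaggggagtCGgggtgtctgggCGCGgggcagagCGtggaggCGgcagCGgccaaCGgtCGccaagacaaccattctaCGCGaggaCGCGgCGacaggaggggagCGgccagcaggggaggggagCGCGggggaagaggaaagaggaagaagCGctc
CDKN2B: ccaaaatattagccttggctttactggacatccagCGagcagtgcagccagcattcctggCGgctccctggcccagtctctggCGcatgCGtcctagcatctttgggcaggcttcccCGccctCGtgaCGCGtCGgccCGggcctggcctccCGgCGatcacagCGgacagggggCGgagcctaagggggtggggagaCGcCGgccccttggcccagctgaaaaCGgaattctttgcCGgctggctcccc
CDKN1A: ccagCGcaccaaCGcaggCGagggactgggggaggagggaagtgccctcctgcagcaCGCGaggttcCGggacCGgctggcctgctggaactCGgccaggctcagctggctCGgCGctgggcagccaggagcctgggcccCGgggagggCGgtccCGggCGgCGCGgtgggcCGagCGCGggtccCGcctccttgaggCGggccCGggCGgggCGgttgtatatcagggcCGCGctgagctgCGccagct

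RefSeq held 9 such stretches for 6 of the 7 genes, and CDKN1C was not matched. All 9 lay wholly within H3K4me3 islands in 6 of 6 lists, and the share of all promoters that did so was not counted. All 9 had a ratio of observed to expected CG above 0.558, the median of 35114 promoters. It was 0.736 at the p16 start, 1.08 on the ARF side, 0.654 at CDKN2B and 0.758 at CDKN1A, and the highest was 1.16 at CDKN2D. The motif GGGCGG, read on both strands, was present in 7 of the 9 stretches and in 42.6% of all promoters. The ARF side stretch and the most upstream of the 3 stretches of CDKN2C held none.

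H3K27me3 was found at a single member. CDKN1C, which encodes p57 and is an imprinted gene of chromosome 11, had an island in both DMSO replicates in the spike-in lists and in the standard lists, and so did 27.7% and 25.4% of all protein-coding genes. CDKN2A, CDKN2B, CDKN2C, CDKN2D, CDKN1A and CDKN1B had no base of their regions in an H3K27me3 island in any of 8 lists. Of all genes, 67% had none. All 7 members had H3K4me3 in every list, so that 0 of 7 were without both marks, against 13.9% of all genes. The check for a missing locus thus found island-bearing starts at all 7 genes. An island does not give a copy number, and copy number was not analysed here.

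The 6 genes without H3K27me3 lay at very unequal distances from it. CDKN2A and CDKN2B, at chr9:21967751-21995300 and chr9:22002902-22009304 on the minus strand, stood in a stretch of 3.51 Mb without an H3K27me3 island in any of the 8 lists. It was the 69th longest of 31738 such stretches, which had a median length of 7.4 kb. The nearest island was 1657 to 1658 kb from CDKN2A and 1692 to 1693 kb from CDKN2B, a span of a few windows over the 8 lists of both treatments.

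CDKN1B encodes p27 and lies at chr12:12838432-12875303 on the plus strand, in a free stretch of 1.51 Mb with 16 protein-coding genes. Its nearest island was 633 to 994 kb away with DMSO and 994 to 1022 kb away with GSK126. CDKN2C encodes p18 and lies at chr1:51426417-51440306 on the plus strand, in a free stretch of 0.912 Mb shared with FAF1, C1orf185 and RNF11. Its nearest island was 366 to 368 kb away in the 4 DMSO lists and 530 to 541 kb away in the 4 GSK126 lists. These ranges did not overlap, but the 4 lists of a treatment come from only 2 libraries. The share of all genes without such overlap was not counted.

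H3K27me3 came closest to CDKN1A and CDKN2D. CDKN1A encodes p21, the inhibitor best known as a target of p53, and lies at chr6:36644237-36655114 on the plus strand. The nearest island stood 10.1 kb downstream in both DMSO spike-in lists, and 26.3 and 10.1 kb downstream in the standard lists of DMSO replicates 1 and 2. With GSK126 it stood 99.1 and 104 kb away in the spike-in lists and 89.1 and 87.7 kb away in the standard lists. The treatments thus did not overlap, and the share of all genes for which this held was not counted. CDKN2D encodes p19 and lies at chr19:10677136-10679735 on the minus strand. Its nearest island was 25.7 and 25.3 kb away in the DMSO spike-in lists and 47.3 and 133 kb away with GSK126. The standard lists had it 25.7 and 24.7 kb away with DMSO and 26.1 and 46.5 kb away with GSK126, so that replicate 1 hardly differed.

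A greater distance with GSK126 in both replicates was found for 4 of these 6 genes in the spike-in lists, where 87.3% of the 13465 genes without H3K27me3 had it. The 2 others were CDKN2A and CDKN2B. In the standard lists it was found for 6 of 6 genes, against 48.9%, although CDKN2A and CDKN2B differed there by 1 window of 200 bp. The plot of distances shows the 6 genes beside the quartiles of all genes of that kind.

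**Figure D1:**
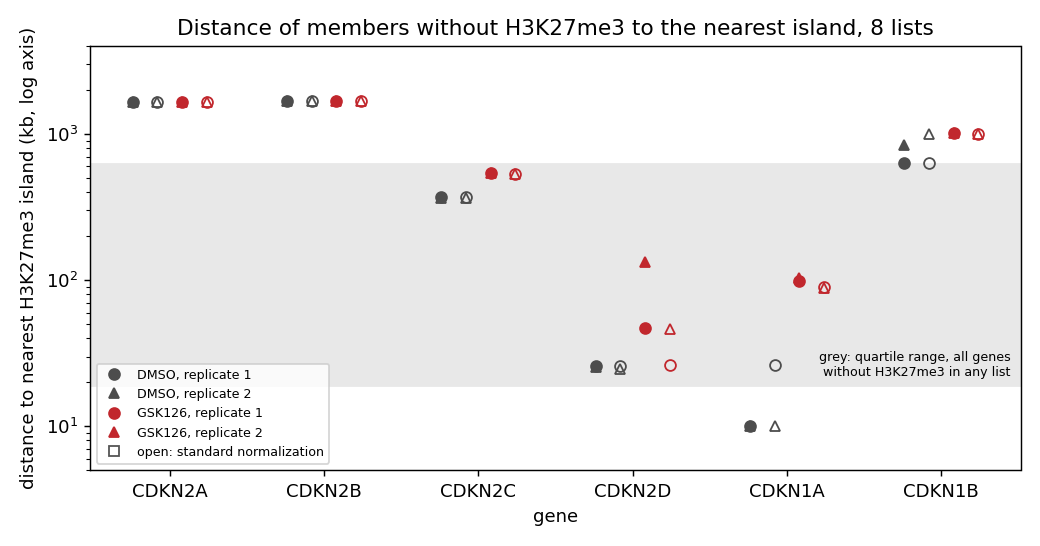
Distance in kb (log axis) from the gene region to the nearest H3K27me3 island for the 6 members without H3K27me3, in 8 lists (grey DMSO, red GSK126, circles replicate 1, triangles replicate 2, open symbols standard normalization). CDKN2A and CDKN2B sit near 1657 and 1693 kb in every list, above the grey band, which spans the lowest lower quartile and the highest upper quartile of 13465 genes, whereas CDKN1A moves from 10.1 kb in 3 DMSO lists to 87.7 kb or more with GSK126.

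CDKN1C, at chr11:2904443-2907005 on the minus strand, was covered by H3K27me3 over 100% of its 4.56-kb region in all 4 DMSO lists. With GSK126 the spike-in lists covered 3558 bp (78.0%) in replicate 1 and 2558 bp (56.1%) in replicate 2. The difference from DMSO was -22.0 and -43.9 percentage points, with a mean of -33.0 ± 15.5 (SD, n = 2). Both GSK126 values lay below both DMSO values. In the standard lists GSK126 left 91.1% and 86.7% covered, with a mean difference of -11.1 ± 3.10 percentage points (SD, n = 2). With 2 pairs an exact sign-flip test, two-sided, cannot give a p below 0.5, so no p is given for any member. The replicates are paired because the authors set the tag numbers within a replicate.

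Within the CDKN1C region, which holds nothing past the gene end, the bases lost were upstream of the gene. The gene body was covered over 100% in replicate 1 and 99.8% in replicate 2 with GSK126 in the spike-in lists, and over 100% in both standard lists. The 2 kb upstream of the start was covered over 100% in the DMSO lists, and with GSK126 over 49.8% and 0% in the spike-in lists and 79.8% and 69.8% in the standard lists. The upstream edge of the island lay 2795 and 2395 bp from the start with DMSO in the spike-in lists. With GSK126 it lay 995 bp upstream in replicate 1, and in replicate 2 the island ended 5 bp inside the gene. The other edge of the island, outside the region, drew back as well in the spike-in lists. It lay 7242 and 4442 bp past the gene end with DMSO, and 242 and 3042 bp past it with GSK126. In the standard lists it lay 4442 bp past the gene end in both DMSO replicates, and 4442 and 6242 bp past it with GSK126.

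The whole island at CDKN1C was 12.6 and 9.4 kb long with DMSO and 3.8 and 5.6 kb long with GSK126 in the spike-in lists. In the standard lists it was 10.0 and 9.4 kb long with DMSO and 8.6 and 10.2 kb with GSK126, so the length of the whole island, unlike its upstream edge, overlapped between the treatments. Its score was above that of 82.0% and 78.8% of the islands in the DMSO spike-in lists, and above that of 71.0% and 65.7% with GSK126. The order was the other way in the standard lists, with 72.6% and 75.2% for DMSO and 79.9% and 79.0% for GSK126. Scores depend on the number of tags and were ranked only within a list. The tag density fitted to the GSK126 spike-in lists was 23.1% and 19.6% of that of DMSO, and the part of tag number in the island length was not tested. In the standard lists the fitted density was 1.36 tags per window for both treatments of replicate 1 and 1.55 for both of replicate 2. The upstream edge in these lists lay 2995 and 2395 bp from the start with DMSO and 1595 and 1395 bp with GSK126. What set the place of the edge was not tested with either normalization.

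**Figure D2:**
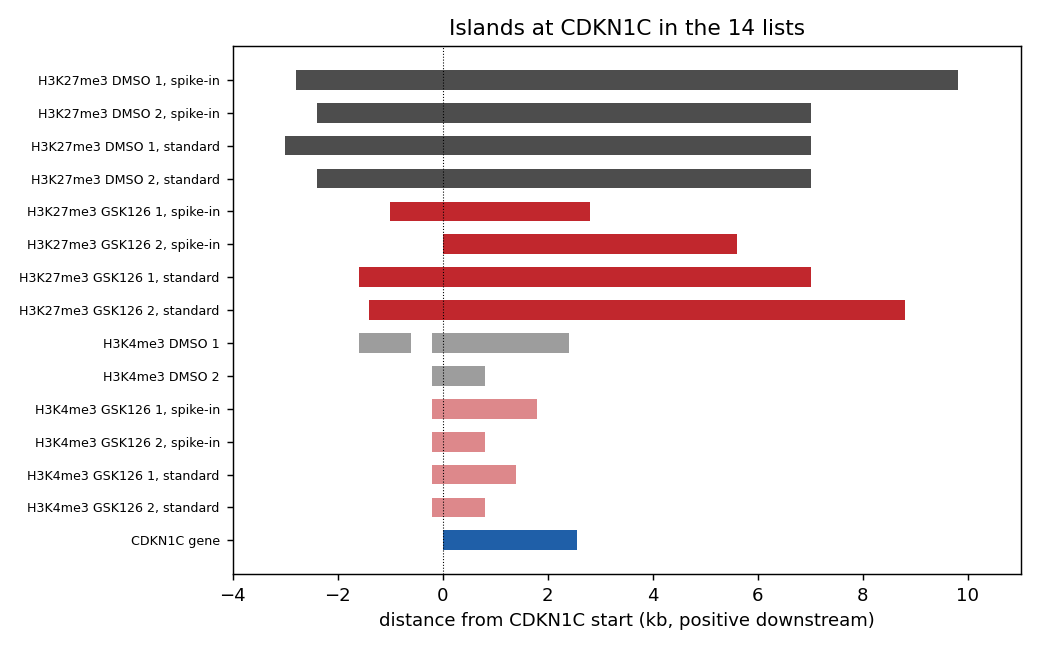
Islands at CDKN1C in the 14 lists, by distance in kb from its start (grey DMSO, red GSK126; full colour H3K27me3, pale H3K4me3; blue the gene). The H3K27me3 islands reach 2395 bp or more upstream of the start with DMSO and 1595 bp or less with GSK126, while the H3K4me3 island over the start begins 195 bp upstream in every list, and DMSO replicate 1 has another H3K4me3 island of 1.0 kb further upstream.

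A lower covered length with GSK126 in both replicates was found for 89.7% of the 5573 genes with H3K27me3 in both DMSO spike-in lists and for 56.3% of the 5101 such genes in the standard lists, and CDKN1C was among them in both. The mean difference had a median of -18.7 percentage points over these genes in the spike-in lists, with quartiles of -35.5 and -6.71, and 28.2% had a larger decrease than CDKN1C. Among the 431 genes that were fully covered in both DMSO spike-in lists, the median was -8.34 and 19.5% had a larger decrease. Among the 397 such genes of the standard lists the median was 0, 69.5% stayed fully covered in both replicates and 9.32% had a larger decrease than CDKN1C. H3K27me3 was left with GSK126 in both replicates at 56% of genes in the spike-in lists and 80.7% in the standard lists, and CDKN1C was among them in both. Over all 7 members the median difference was 0, as it was over all 20090 genes.

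CDKN1C was also the member with both marks. An H3K4me3 island covered its start in all 6 lists, and 100% of the H3K4me3 bases in its region were in an H3K27me3 island of the same replicate and treatment, except in replicate 2 with GSK126 in the spike-in lists, where it was 80%. Both marks over a gene start in both DMSO replicates were found at 6.46% of all genes. These are islands from separate libraries of many cells, and the same or different alleles or cells cannot be told apart.

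The H3K4me3 island over the CDKN1C start was the shortest of the 7 members in all 6 lists. It was 2.6 and 1.0 kb long in DMSO replicates 1 and 2, 2.0 and 1.0 kb with GSK126 in the spike-in lists, and 1.6 and 1.0 kb in the standard lists. Its score exceeded that of 29.9 to 46.4% of the islands in a list, the lowest of the 7 members in each. In DMSO replicate 1 a second island of 1.0 kb stood upstream of the start and had no counterpart in the other lists.

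All 7 members had H3K4me3 over a gene start in both DMSO replicates, as did 63.7% of all genes. The 6 without H3K27me3 are better set beside the genes that also had none in any list, of which 74.2% had H3K4me3 over a start. Of 43 distinct transcript starts annotated for the 7 genes, 31 lay in an H3K4me3 island in all 6 lists and 8 in none. The shares over the starts of all genes were not counted. The covered length was greater in replicate 1 than in replicate 2 at 7 of 7 members with either treatment. The fitted tag density was 1.77 per window in replicate 1 with DMSO and 0.302 in replicate 2, and its part in the widths was not tested.

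CDKN2A, the gene of the INK4 protein p16 and, through another first exon, of the p53 activator ARF, had 2 separate H3K4me3 islands in each list. The island over the p16 start was 4.4 and 2.6 kb long with DMSO, and 4.6 and 2.4 kb long with GSK126 in the spike-in and in the standard lists. It was longer in replicate 1 and shorter in replicate 2, each by 1 window. The island over the ARF start was 7.8 and 3.8 kb long with DMSO and 6.6 and 3.4 kb long with GSK126. This island also held the start of CDKN2B-AS1, the antisense RNA known as ANRIL, and ChIP does not assign the mark to either gene. Over the whole CDKN2A region the covered share was 39.6 and 21.7% with DMSO and 36.2 and 19.6% with GSK126, a mean difference of -2.71 ± 0.957 percentage points (SD, n = 2), which was smaller than the gap between the replicates of either treatment.

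Starts of CDKN2A transcripts within 30 bp of the p16 start, and those on the ARF side, were in an H3K4me3 island in all 6 lists. The 4 distinct starts that lay 3457 to 4390 bp downstream of the p16 start were in none.

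CDKN2B, the gene of p15, had 1 H3K4me3 island, over its start. It was 4.4 and 1.2 kb long with DMSO and 5.4 and 1.4 kb long with GSK126 in the spike-in and in the standard lists. It was the one member with a greater H3K4me3 length with GSK126 in both replicates, by 1.0 and 0.2 kb, or 7.14 ± 6.73 percentage points of its region (SD, n = 2). The gap in replicate 2 was 1 window. The share of all genes with a greater H3K4me3 length in both replicates was not counted. Its score exceeded that of 48.9 to 62.4% of the islands in a list. By the highest-scoring island of each region, CDKN2B stood above CDKN1C and below the 5 other members in all 6 lists. In replicate 2 the island over the p16 start scored lower than that of CDKN2B, at 250 against 307 with DMSO. With GSK126 it was 313 against 331 in the spike-in list and 346 against 379 in the standard list.

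**Figure D3:**
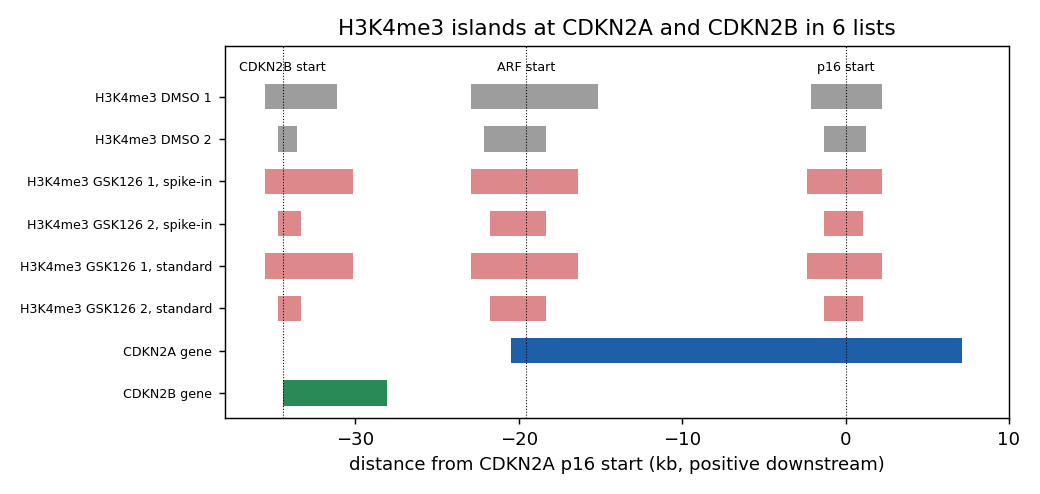
H3K4me3 islands at CDKN2A and CDKN2B in 6 lists, by distance in kb from the p16 start of CDKN2A (grey DMSO, red GSK126; blue and green the genes; dotted lines the p16, ARF and CDKN2B starts). Each list has an island over each of the 3 starts, from 1.2 kb at CDKN2B in DMSO replicate 2 to 7.8 kb at the ARF start in DMSO replicate 1.

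CDKN2C had 2 islands. The one over the start of its canonical transcript was 4.4 and 3.2 kb long with DMSO, 4.0 and 2.4 kb with GSK126 in the spike-in lists, and 4.0 and 2.6 kb in the standard lists. The other, at the most upstream start, also covered the start of FAF1, a neighbour transcribed the other way. The covered share of the whole region differed by 6.29 and -5.03 percentage points in the 2 replicates of the spike-in lists.

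CDKN2D had an island of 7.4 kb in DMSO replicate 1 and of 2.4 kb in DMSO replicate 2 over its start. The lengths with GSK126 were 7.0 and 2.4 kb in the spike-in lists and 6.0 and 2.4 kb in the standard lists. In replicate 1 the island ran on to the start of the neighbouring KRI1, which in replicate 2 had an island of its own. The covered share of the region was 97.1 and 75.3% with DMSO and 84.0 and 53.6% with GSK126 in the spike-in and in the standard lists, a mean difference of -17.4 ± 6.15 percentage points (SD, n = 2). In replicate 2 the island over the CDKN2D start had the same length in both treatments, and the bases lost belonged to the island at KRI1, which was 2.8 kb long with DMSO and 2.0 kb with GSK126.

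Of the CIP/KIP genes, CDKN1A had H3K4me3 over 6.4 and 4.0 kb of its region with DMSO. The values with GSK126 were 7.4 and 2.8 kb in the spike-in lists and 6.0 and 2.8 kb in the standard lists. The direction of replicate 1 thus depended on the normalization, and the mean difference was -0.777 ± 12.1 percentage points (SD, n = 2) in the spike-in lists. In replicate 2 the island over the start was 2.8 kb long in every list, and the difference came from an island of 1.2 kb inside the gene that stood in the DMSO list. The island over the start also held the start of DINOL, a noncoding RNA gene. The 5 starts from 4 bp upstream to 57 bp downstream of the canonical start were covered in all lists, and the 3 starts 2186 to 2254 bp upstream in none.

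CDKN1B had the longest island over a canonical start of the 7 members in all 6 lists. It was 13 and 4.0 kb long with DMSO and 13 and 4.2 kb long with GSK126 in the spike-in lists. In replicate 1 it ran past the end of CDKN1B to the start of APOLD1. A second island held the start of GPR19 and those of CDKN1B transcripts that begin 21009 and 21021 bp upstream of the canonical start. The covered length of the region was 10.3 and 5.4 kb with DMSO and 10.9 and 5.4 kb with GSK126, and did not differ at all in replicate 2.

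**Figure D4:**
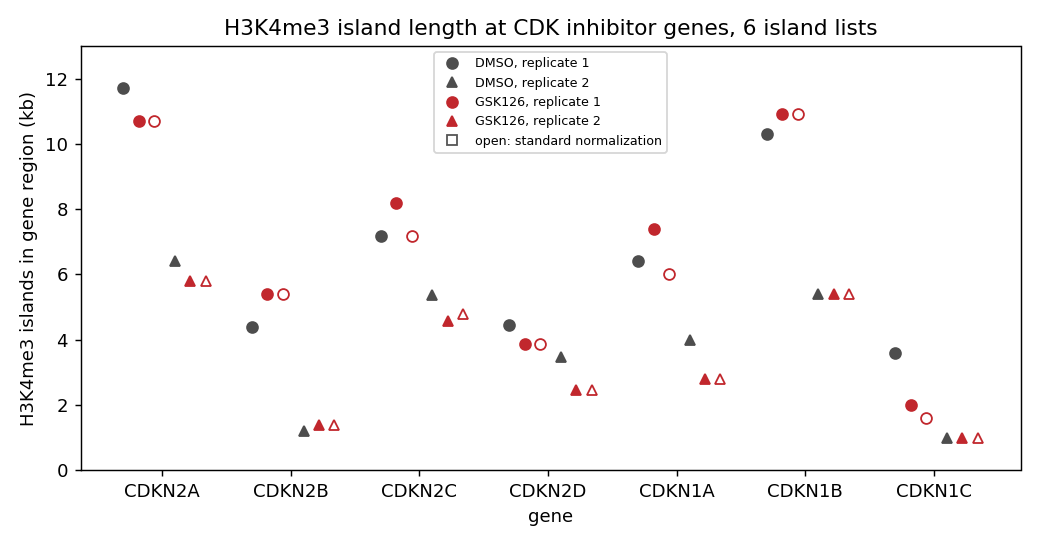
Length in kb of each gene region covered by H3K4me3 islands in 6 lists (grey DMSO, red GSK126, circles replicate 1, triangles replicate 2; open red symbols the standard lists; each DMSO library had 1 list). Every circle of a gene lies above its triangles of the same treatment, and at CDKN2B the values with GSK126 exceed DMSO in both replicates while at CDKN2A and CDKN2D they are below it.

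A lower H3K4me3 length in both replicates was found for 2 of 7 members in the spike-in lists, CDKN2A and CDKN2D, and for 3 of 7 in the standard lists, which added CDKN1A. It was found for 37.1% and 37.8% of the 13664 genes with H3K4me3 in both DMSO lists. With the means of the replicates in place of pairs the counts were 4 and 5 of 7, and with replicate 2 alone or replicate 1 alone the spike-in count was 4 or 3. The 2 comparisons share their DMSO lists. Between neighbours in the order of island length only the ends held in all 6 lists, with CDKN1B first and CDKN1C last. The other members changed places with the list, CDKN2A between places 3 and 5 and CDKN2C between places 2 and 6.

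The G1/S genes that act with the inhibitors, a list of 28 genes, were mostly without H3K27me3 and marked by H3K4me3. No H3K27me3 island was found in any list at 24 of them, where 67% of all genes had none. H3K4me3 lay over a start in both DMSO replicates at 26, against 63.7% of all genes. CCND2, which encodes a D cyclin, was covered by H3K27me3 over 98.2% in both DMSO spike-in lists and over 97.7 and 98.2% with GSK126, and had no H3K4me3 island. RB1, the gene of the retinoblastoma protein, had H3K27me3 in the DMSO spike-in lists over 1.48 and 2.55% of its 298-kb region, and GSK126 left none of it. It had 1.48 and 2.08% with DMSO in the standard lists and kept 1.07% with GSK126 in both replicates. CCNE2 had H3K27me3 only in the standard lists with GSK126, over 22.8 and 9.52%, and CCND1 only in the standard list of DMSO replicate 1, over 1.58%. CCNA1 and CCND2 had no H3K4me3 in any list. Of the 26 genes with H3K4me3 in both DMSO lists, 8 (spike-in) and 6 (standard) had a lower covered length in both replicates. The shares over all such genes were 37.1% and 37.8%. A higher one was found for 3 and 2, and its share over all genes was not counted. Lower with either normalization were CCND3, CDK4, CDK6, RBL1, TFDP1 and MDM2. CDK4 had 8.6 and 5.8 kb with DMSO and 7.29 and 4.6 kb with GSK126 in the spike-in lists. CDK6 had 10.4 and 5.6 kb, and then 8.0 and 5.0 kb.

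Around CDKN2A and CDKN2B, 10 of 11 neighbours had no H3K27me3 in any list, where 67% of all genes had none. These 10 lie within the free stretch of 3.51 Mb, so their lack of islands follows from its definition. The exception was ELAVL2, a neuronal RNA-binding protein gene whose region reaches past one end of the free stretch, with 1.74 and 2.75% covered in the DMSO spike-in lists and 0 and 2.75% in the DMSO standard lists. No list with GSK126 had an island there. MTAP, which lies next to CDKN2A and encodes an enzyme of methionine salvage, had H3K4me3 over 6.17 and 3.6 kb with DMSO and 5.97 and 3.0 kb with GSK126 in the spike-in lists. MLLT3, FOCAD, KLHL9 and DMRTA1 also had H3K4me3 over a start in all 6 lists. The interferon genes IFNB1, IFNA1, IFNA2 and IFNE had no island of either mark.

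Around CDKN1C, 7 of 16 neighbours had H3K27me3 in both DMSO spike-in lists, where the share over all genes was 27.7%. All 7 had less with GSK126 in both replicates, where the share was 89.7%. In the standard lists 8 of 16 had H3K27me3 with DMSO and 6 of these had less with GSK126, against 25.4% and 56.3%. In the spike-in lists H19, an imprinted noncoding RNA gene, was covered over 100% in both DMSO lists and over 91.2 and 89.4% with GSK126. IGF2, an imprinted growth factor gene, was covered over 75.7 and 83.4% and then 70.5 and 66.7%. KCNQ1, a potassium channel gene next to CDKN1C, was covered over 54.7 and 59.6% and then 38.1 and 46.1%. Neither H19 nor KCNQ1 had less with GSK126 in both replicates of the standard lists, whereas IGF2 did. H19 was fully covered there with GSK126 in both replicates and with DMSO in replicate 1. KCNQ1 was covered there over 58.4 and 55.4% with DMSO and over 57.4 and 57.6% with GSK126, so its replicates went apart. In the spike-in lists no base was left in either replicate at INS, with 46.2 and 98.5% for DMSO. INS had 46.2 and 92.7% with DMSO and 0 and 46.2% with GSK126 in the standard lists. SLC22A18AS, the seventh, is no separate case, since the bases covered in its region (1.23 and 0.827 kb with DMSO in the spike-in lists) were the end of the CDKN1C island. GSK126 left none of them in the spike-in lists and 0.027 kb in the standard list of replicate 1.

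H3K27me3 was absent from 7 neighbours in all lists, among them the imprinted KCNQ1OT1, PHLDA2 and SLC22A18, which had H3K4me3 over a start in all 6 lists.

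**Figure D5:**
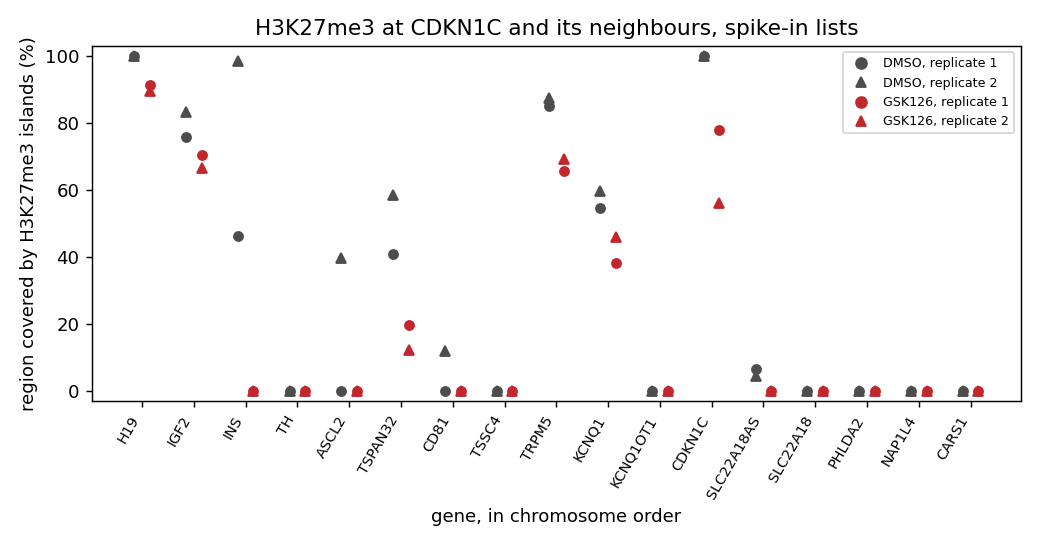
Share of each gene region covered by H3K27me3 islands in the spike-in lists, for CDKN1C and 16 neighbours in chromosome order (grey DMSO, red GSK126, circles replicate 1, triangles replicate 2). CDKN1C goes from 100% with DMSO to 78.0 and 56.1% with GSK126, and H19 from 100% to 91.2 and 89.4%.

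The genes whose covered shares were most like those of CDKN1C over the 14 lists were NXPH3, LRRC75B and SAMD11, with mean absolute differences of 7.59, 7.84 and 7.95 percentage points. LRRC75B was covered by H3K27me3 over 100% in both DMSO spike-in lists and over 68.6 and 72.7% with GSK126. NXPH3 was covered over 100 and 98.1% with DMSO and over 78.0 and 100% with GSK126, so its replicates went apart where those of CDKN1C did not.

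Across the series, the H3K27me3 lists held 16401 to 35901 islands and the H3K4me3 lists 17304 to 23875. No island ran past the end of a GRCh37 chromosome. The 6 epithelial marker genes EPCAM, CDH1, KRT8, KRT18, KRT19 and EGFR had H3K4me3 over a start in all 6 lists. The blood markers PTPRC, CD3E and SPI1 had it in no list.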

How the data were processed

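The deposited files list islands with a SICER score. The authors aligned 50-nt tags to hg19 (GRCh37) with BWA, kept unique tags without duplicates, removed human tags at random to reach either equal tag numbers within a replicate (standard) or the ratio given by D. melanogaster tags (spike-in), and called islands per library with SICER 1.1 against a random background at an E-value of 1, with 200-bp windows and gaps of 600 bp (H3K27me3) or 200 bp (H3K4me3). SAMtools 0.1.18 is named in the submitters' processing notes. The score the authors deposited for an island is, as SICER defines it, a sum of negative natural logs of Poisson probabilities over windows and depends on tag number, so scores were ranked only within a list.

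Python 3.11.15 with NumPy 2.4.6 gave the covered bases of GENCODE 44 genes, lifted to GRCh37. Differences were taken within replicates, which share tag normalization. The labels give no replicate numbers, which follow the order of deposit and match the authors' naming, and the labels do not say whether replicates came from separate cultures. The paper calls them biological replicates. The island lists hold no tag counts, and tag density per window was fitted from the scores of short islands with SciPy 1.17.1. The authors published tag numbers, which the fit did not use. The fit and the coverage code were tested on simulated data. Figures were drawn with Matplotlib 3.10.9. The members, the gene lists, and the rule for named genes (all members, the listed G1/S genes and neighbours, and the 3 genes with the smallest mean absolute difference to a member with H3K27me3) were chosen with earlier results of these data known. One listed gene is not reported here. Other scores, lengths, regions, overlaps, replicate choices and pairings were tried.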

Additional observations from a re-analysis of the deposited data

How the results depend on the processing

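With the gene body alone as the region, the count of members with less H3K27me3 in both replicates went from 1 to 0 in the spike-in and in the standard lists. The bases lost within the CDKN1C region were upstream of the gene. The mean difference at CDKN1C was then -0.098 percentage points in the spike-in lists. The count of members with less H3K4me3 in the spike-in lists went from 2 to 1 with the gene body alone and with 2 kb on either side of the outermost start. In the standard lists the latter took it from 3 to 1. Without pairing by replicate, with the mean of the GSK126 lists set against the mean of the DMSO lists, the H3K4me3 counts were 4 (spike-in) and 5 (standard), and the pairing changed no other count. With 1 replicate alone the spike-in count was 3 (without replicate 2) to 4 (without replicate 1), and the standard count was 4 in both cases, since 1 replicate then decided the call. At CDKN1A the H3K4me3 difference in the standard lists turned from -6.21 to 2.50 percentage points with 2 kb on either side of the outermost start, and the cause was not tested. With that region 1 member, CDKN1B, had no island of either mark, since its outermost start lay 31870 bp upstream of the canonical one. Of the differences at single genes, that of CDKN2D for H3K4me3 went from -17.4 to -10.5 percentage points with 5 kb upstream. That of CDKN2A went from -2.71 to -5.00 with 2 kb on either side of the outermost start and to -1.10 with the canonical transcript. With these 2 regions that of CDKN2C went from -1.89 to 5.00 and to -6.26 in the standard lists. In the spike-in lists it went from 0.629 to 15.2 and to -6.26. That of CDKN1B went from 0.772 to 2.14 with the canonical transcript. At CDKN1A stricter scores took it from -6.21 to -1.55 in the standard lists. The H3K27me3 difference of CDKN1C in the standard lists went from -11.1 to -15.9 with 5 kb upstream. The other counts stayed within 1.5 times of the reported ones under the alternatives tried, stricter scores, longer islands and 5 kb upstream included. The canonical transcript with 2 kb upstream was added as a region after seeing the data. The island lists hold no tag counts, so no interval was computed for a covered length, and a difference of 1 window was not distinguishable from the 200-bp steps of the lists.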
